A study of Mus musculus with 54 samples.

Results

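In mouse H2K myogenic progenitors, 52 named genes were lower than wildtype in each of 5 emerin-mutant or emerin-transduced lines on each of 3 days of differentiation. They were chosen from the measured values: a gene entered when the log2 ratio of the line's value to the wildtype value, with 1 added to both, was -0.8 or lower in all 15 tables that set a line against wildtype. The higher of both values also had to reach 20 in every table. This left 11239 named genes that could have entered, besides Emd itself, of 14443 named genes listed in all 15 tables, so the 52 are 0.463% of them. The mirror rule found 50 genes (0.445%) that were higher throughout. The differences from wildtype are therefore a description of how the genes were picked, and nothing is tested on them.

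H2K progenitors are conditionally immortalized mouse muscle precursor cells that fuse into myotubes when serum is lowered. Emerin, the product of the X-linked gene Emd, is a protein of the inner nuclear membrane, and its loss causes Emery-Dreifuss muscular dystrophy. The lines were wildtype (never transduced), EMD-/y (emerin-null), and EMD-/y transduced with lentivirus for wildtype emerin (+EMD) or for the patient variants S54F, Q133H, or Δ95–99. RNA was taken at days 0, 1, and 2 of differentiation (0, 24, and 48 h), with 3 labelled replicates for each of 18 groups, 54 samples in all. The labels describe technical replicates of biological replicates without saying which is which. The growth medium contained γ-interferon and the differentiation medium listed none. The mutant lines were kept in puromycin on all days and, by the methods, the transduced cells were plated more densely than wildtype and EMD-/y cells. Transduction, selection, and plating thus go with the 4 transduced lines and cannot be told apart from the introduced emerin. By the methods, the puromycin dose for selection was highest for S54F and Δ95–99 and lowest for +EMD. The paper also reports more emerin protein in Q133H than in wildtype. Differences among the transduced lines cannot be told apart from dose or emerin level. The 4 transduced lines were made from the EMD-/y cells, and all 5 lines were compared with the same wildtype groups. The 5 lines are therefore not independent of each other. Each line was grown as a culture of its own. Differences between the wildtype and EMD-/y cultures, which the transduced lines can share, cannot be told apart from the loss of emerin either.

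The deposited tables give 1 normalized count for each group and no values for single samples, so the values below carry no replicate spread. Sums over all genes of a group were 16719491 to 21128040. Emd was listed at 987 to 1962 in wildtype and at 0.457 to 3.52 in EMD-/y. It was at most 2.67 in the 4 transduced lines, +EMD included, so Emd reads checked the null background and not the introduced emerin. All 12 myogenic markers were listed in every table, Myod1 at 13878 to 21857 in wildtype and at 6217 to 22336 in the lines. Myf5 was at 125 to 241 in wildtype and 226 to 1514 in the lines, and Pax7 at 50.3 to 388 and 3.62 to 2148, and the median of the list's medians was 0.04. Fibroblast markers had a median of -0.79 over the 3 that passed the minimum, with a sum over the 6 listed of 18645 to 34050 in wildtype and 8718 to 43569 in the lines. Smooth muscle and pericyte markers had a median of 1.13 over 3, with Cspg4 higher in all 15 tables. Their sum over the 5 listed was 37894 to 98782 in wildtype and 15646 to 83394 in the lines. Acta2, the most abundant of them, was at 37397 to 98479 in wildtype and 14837 to 82716 in the lines. The part of these markers in the differences below was not tested. Endothelial markers (Cdh5, Pecam1, Kdr, Tek) were at most 32.0 each, and their sum was 17.7 to 50.4 in wildtype and 17.0 to 51.2 in the lines.

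A low value in these tables depends on what it was compared with. No value in the 15 tables was 0. Where a gene exceeded 1000 in one group, the lowest value in the other group was between 0.677 and 3.20, depending on the table. The same group could be read a second time from the tables that compared consecutive days of a line. Gbp2b in EMD-/y at day 2 was 14.1 beside wildtype and 0.147 beside EMD-/y at day 1. Over the 52 genes, 255 line values were under 5 beside wildtype. Of these, 199 were listed again between days, with a median ratio of 0.544 to the first value, and 56 were not listed there. The 365 line values of 20 or more had a median ratio of 1.02, but 4 of them were more than 2-fold lower between days, with a lowest ratio of 0.037. Of the 159 listed values from 5 to 20, 3 were more than 2-fold lower, with a lowest ratio of 0.010 and a median of 0.902. Low line values were therefore raised in the wildtype tables, the log2 ratios of nearly absent genes are too small in size, and small line values do not rank the lines. A second reading is given below for some of the genes described, from tables scaled separately. Every other line value under 5 is to be read with this limit, and single higher values can be raised too.

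The median log2 ratio over the 52 genes was -2.70, -2.81, and -2.86 in EMD-/y at days 0, 1, and 2. It was -2.76, -3.02, and -2.92 in S54F and -3.35, -3.83, and -3.45 in Δ95–99. It was -4.43, -4.85, and -4.83 in Q133H and -3.99, -3.70, and -3.69 in +EMD. The median of all genes stayed within 0.011 of 0 in the 15 tables. Q133H had the most negative median for 33 genes, +EMD for 14, S54F for 3, Δ95–99 for 2, and EMD-/y for 0. These counts include values under 5, which do not rank the lines. Over all genes, the share at -0.8 or lower on days 0, 1, and 2 was 8.02%, 15.4%, and 17.5% in Q133H, 11.7%, 11.7%, and 8.84% in +EMD, 6.33%, 12.4%, and 10.5% in Δ95–99, 5.91%, 6.66%, and 5.05% in S54F, and 3.98%, 2.40%, and 2.31% in EMD-/y. All 4 transduced lines thus had a larger share of low genes than EMD-/y over all genes on each day. The 52 genes cannot show this, as the rule makes each of them low in every line.

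**Figure D1:**
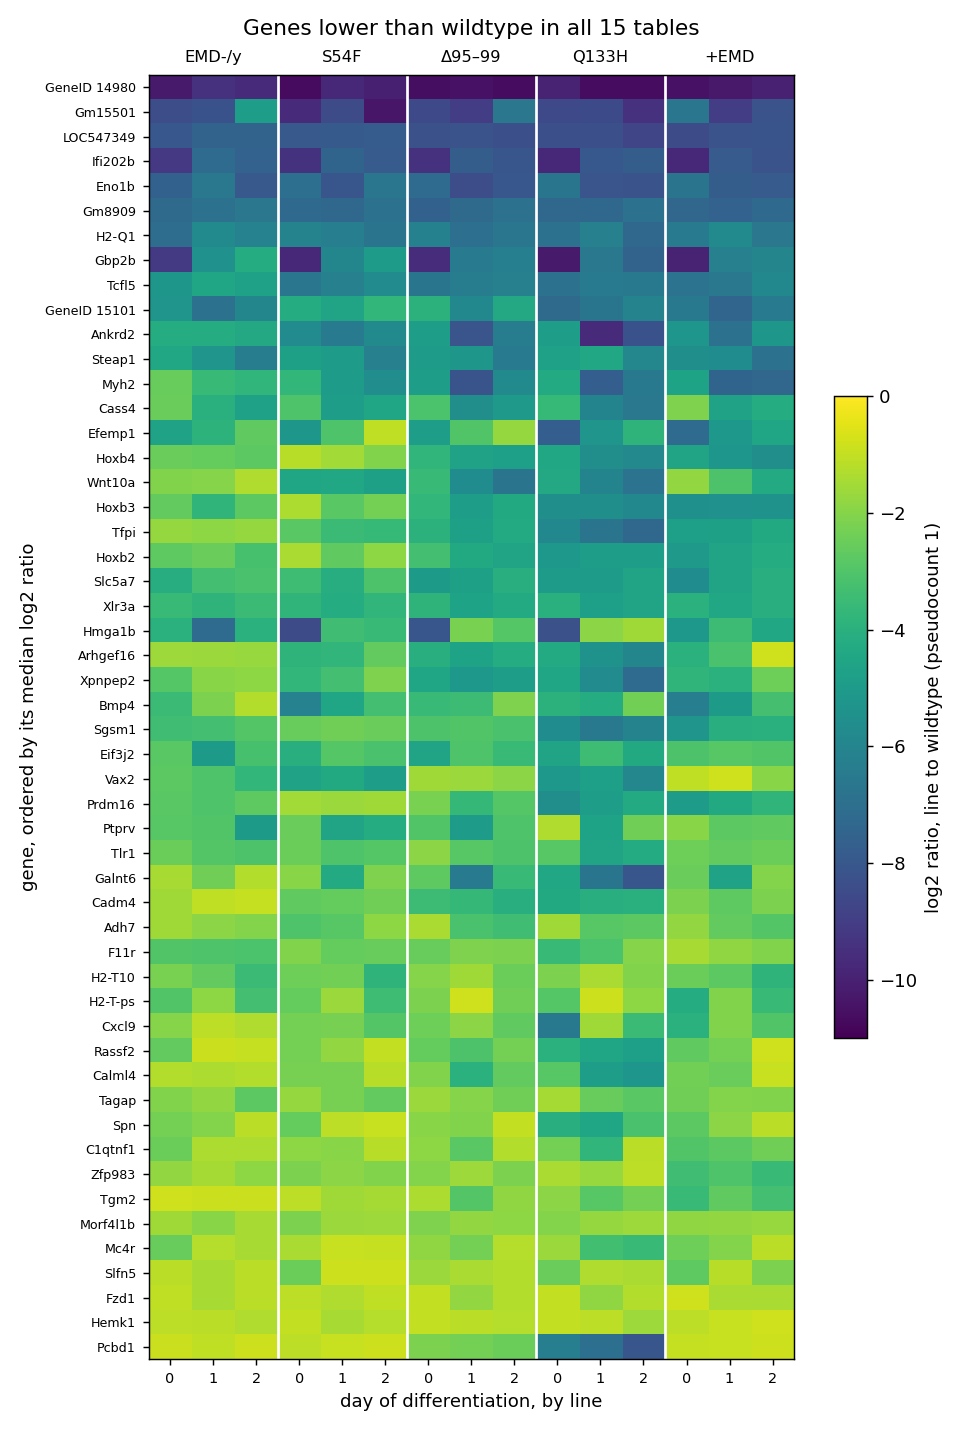
Log2 ratio of line to wildtype (pseudocount 1) for the 52 genes (rows, ordered by their median) in the 15 tables (columns, days 0, 1, and 2 within each line). Every cell is at or below -0.8 by the rule, and in the lowest row, Pcbd1, the Q133H cells are dark where those of EMD-/y, S54F, and +EMD are light.

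Steap1, a six-transmembrane protein related to metal reductases, had the highest wildtype level of the 52 genes for its length at day 0, a normalized count of 17454 per kb. Its normalized count in wildtype was 21228 to 21734 at day 0, 15672 to 16889 at day 1, and 22565 to 25666 at day 2, where a range spans the 5 tables that hold the same wildtype group. EMD-/y had 999, 402, and 282 on these days, and S54F had 786, 533, and 313. Steap1 was at 700, 470, and 282 in Δ95–99, at 824, 768, and 422 in Q133H, and at 466, 325, and 200 in +EMD. All line values lay far below all wildtype values, and in each line the highest value was that of day 0. The median log2 ratio of Steap1 was -5.28 and its line medians spanned 0.944.

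A group of genes was near the bottom of the scale in most or all line groups. Gm15501 is given with them as far below wildtype, although beside wildtype it fell under 5 only in S54F. GeneID 14980, an identifier with no symbol in the RefSeq table used here, was at 4929 to 5040 in wildtype at day 0 and 3324 to 3782 at day 2, and at 1.24 to 4.05 in the lines. Read between days, the line values of GeneID 14980 were at most 2.07. Gm15501, a gene on chromosome 7, was at 4386 to 5329 in wildtype and at 2.55 to 149 in the lines. It is among the genes, described below, with a near-identical transcript of another gene, so its reads can be divided with a partner. Read between days, the 149 of EMD-/y at day 2 was 5.57. Tcfl5, a basic helix-loop-helix factor, was at 271 to 277 in wildtype at day 0 and 123 to 142 at day 2. Tcfl5 reached 6.90 in EMD-/y and 1.68 in the transduced lines. Xlr3a, a member of an X-linked lymphocyte-regulated family, was at 28.5 to 41.4 in wildtype and at most 1.63 in the lines, and was listed in no table between days of a line. Its transcript aligned to that of Xlr3b over 3785 bases (98.0% identity) and of Xlr3c over 1187 (98.6%). Reads of Xlr3a can therefore be divided with these partners, whose values are not given here. These genes were well above the bottom of the scale in wildtype on all 3 days and far lower in the lines. In all, 5 of the 52 genes stayed at or below 5 in every line group, and 11 stayed at or above 20.

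Major histocompatibility complex class I genes encode surface proteins that present peptides to T cells, and interferon-γ raises many of them. H2-Q1 was at 736 to 752 in wildtype at day 0 and 351 to 400 at day 2, and at 1.47 to 9.81 in the lines. LOC547349, an entry that the RefSeq table lists with the synonym H2-K1, was at 602 to 802 in wildtype and at most 2.39 in the lines. Gm8909 was at 308 to 479 in wildtype and at most 2.30 in the lines. That the line values lie below wildtype is required by the rule. Those of LOC547349 and Gm8909 were close to the bottom of the scale, while those of H2-Q1 reached 9.81.

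H2-T10 and H2-T-ps, neighbours 4.15 kb apart on chromosome 17, had higher values at day 0. H2-T10 was at 2556 to 2628 in wildtype at day 0 and 1538 to 1745 at day 2. EMD-/y had 563 at day 0 and 136 at day 2, S54F had 468 and 108, Δ95–99 had 662 and 308, Q133H had 575 and 408, and +EMD had 467 and 112. H2-T10 thus stood at a part of its wildtype level in all lines. It is annotated as a transcribed pseudogene, and its transcript aligned to that of BC023719 over 931 bases (100% identity). Reads of H2-T10 can therefore be divided with this partner, whose values are not given here. H2-T-ps was at 273 to 281 in wildtype at day 0 and at 14.3 to 61.3 in the lines, and at day 2 at 78.6 to 90.9 and 5.98 to 24.5. Of the 18 MHC class I and antigen-processing genes that could have entered, 2 did (H2-Q1 and H2-T10), and the median of the 18 genes' median log2 ratios was -0.10. Gm8909 lies 22.4 kb beyond H2-T10, with 1 other gene over the minimum between them, while H2-Q1 lies 781 kb before H2-T-ps, with 24 such genes between.

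Another set was put together by what its genes are known for, after their values were seen. Gbp2b encodes a guanylate-binding GTPase of the response to interferon-γ, Cxcl9 a chemokine named for its induction by interferon-γ, Ifi202b a DNA-binding protein of the interferon-inducible Ifi200 family, and Slfn5 a Schlafen family protein. Gbp2b was at 3159 to 3227 in wildtype at day 0, at 143 to 155 at day 1, and at 278 to 331 at day 2. Its line values beside wildtype were 0.639 to 14.1. Between days, Gbp2b was at most 0.184 where listed in EMD-/y and S54F and was not listed in Δ95–99, Q133H, or +EMD. Ifi202b was at 2094 to 2141 in wildtype at day 0 and 721 to 821 at day 2, and at 1.42 to 3.83 in the lines. Both genes were nearly without reads in the lines on every day.

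Cxcl9 and Slfn5 were lower but present. Cxcl9 was at 1320 to 1437 in wildtype at day 0. At day 0 Cxcl9 was at 14.3 in Q133H, 87.6 in +EMD, 266 in S54F, 268 in Δ95–99, and 357 in EMD-/y. At day 2 wildtype was at 28.2 to 33.3 and the lines at 2.02 to 10.8. Q133H therefore stood apart from the other lines at day 0. Slfn5 was at 113 to 117, 45.8 to 51.2, and 72.2 to 82.7 in wildtype at days 0, 1, and 2, and at 16.0 to 52.1 in the lines over all days. Tlr1, a receptor for bacterial lipopeptides, was at 21.0 to 65.2 in wildtype and at 0.521 to 10.0 in the lines. Of 39 interferon-response genes that could have entered, 1 did (Cxcl9) and 3 were higher throughout (Mndal, Ifi211, and Irgm2). The median of the 39 medians was -0.31. The γ-interferon of the growth medium was given to all lines by the labels, and its part in these values was not tested.

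The promoters of Gbp2b and Slfn5 are shown because they were the only 2 of the 37 genes with a promoter in the RefSeq table (GRCm38.p6, the build of the files) that held the core of an interferon-stimulated response element, searched as GAAA, any 2 bases, and GAAA on either strand. This is 5.41% of the 37, beside 3.61% of 9077 genes over the minimum. In these shares a gene counts when any of its listed promoters holds the match. Each line runs 5′ to 3′ on the gene's strand, through the start site and 300 bases long, with the match in capitals.
Gbp2b, chr3:142594597-142594896, + strand: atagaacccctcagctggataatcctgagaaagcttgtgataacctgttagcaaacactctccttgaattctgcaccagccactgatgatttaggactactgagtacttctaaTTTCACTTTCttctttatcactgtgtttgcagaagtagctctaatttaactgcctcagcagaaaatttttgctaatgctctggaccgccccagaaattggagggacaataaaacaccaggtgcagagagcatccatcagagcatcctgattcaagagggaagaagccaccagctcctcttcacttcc
Slfn5, chr11:82951852-82952151, + strand: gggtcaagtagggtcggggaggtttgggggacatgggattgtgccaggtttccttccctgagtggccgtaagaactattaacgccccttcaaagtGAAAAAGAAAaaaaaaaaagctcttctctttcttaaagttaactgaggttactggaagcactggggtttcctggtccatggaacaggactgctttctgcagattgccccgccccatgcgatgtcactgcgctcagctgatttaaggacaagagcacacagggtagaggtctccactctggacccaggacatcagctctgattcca
The match starts at -137 in Gbp2b, where it reads on the opposite strand, and at -155 in Slfn5, with the start site of the promoter shown as 0. In both genes this site lies downstream of the annotated gene start (142594816 in Gbp2b and 82951349 in Slfn5). A match is a string of letters and not a measured site. The gamma-activated site TTCNNNGAA was held by promoters of 4 of the 37 genes (Calml4, Hmga1b, Ifi202b, and Tlr1), 10.8% beside 8.04%.

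Ankrd2, Myh2, Galnt6, Calml4, Xpnpep2, and Cass4 are described together because they rose during wildtype differentiation, a grouping made after their values were seen. Ankrd2 encodes an ankyrin-repeat protein that binds titin at the sarcomere I band and also enters the nucleus. Its wildtype value was 177 to 181 at day 0, 3274 to 3557 at day 1, and 10550.5 to 12005 at day 2. Ankrd2 was at 8.83, 179, and 512 in EMD-/y on days 0, 1, and 2. It was at 2.44, 37.4, and 198 in S54F, at 5.11, 12.1, and 138 in Δ95–99, at 5.27, 3.38, and 38.5 in Q133H, and at 3.82, 27.8, and 304 in +EMD. The EMD-/y value of day 1 was near the wildtype value of day 0, that of day 2 lay below wildtype at day 1, and Q133H was the lowest line at days 1 and 2. The median log2 ratio of Ankrd2 was -4.19 to -8.25 by line.

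Myh2, the fast myosin heavy chain IIa, was at 107 to 114 in wildtype at day 0, 654 to 731 at day 1, and 3519 to 3992 at day 2. It was at 17.3, 54.9, and 259 in EMD-/y and at 7.57, 22.6, and 74.3 in S54F. Its day 2 values were 71.1 in Δ95–99, 41.5 in Q133H, and 21.5 in +EMD, from 5.00 or less at days 0 and 1. EMD-/y had the highest Myh2 of the 5 lines on each day. Of 51 sarcomere and late muscle genes that could have entered, Myh2 alone did, and the median of the 51 medians was -0.68.

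Galnt6, a transferase that starts mucin-type O-glycans, was at 79.6 to 82.4, 515 to 558, and 1941 to 2215 in wildtype. At day 2 Galnt6 reached 816 in EMD-/y, 492 in +EMD, 455 in S54F, and 181 in Δ95–99, but 7.33 in Q133H. Calml4, a calmodulin-like protein, was at 233 to 266 in wildtype at day 2, at 128 in +EMD, 106 in S54F, 95.2 in EMD-/y, 40.9 in Δ95–99, and 6.22 in Q133H. Xpnpep2, a membrane-bound aminopeptidase, was at 266 to 304 in wildtype at day 2, at 71.1, 61.9, 9.11, and 50.5 in EMD-/y, S54F, Δ95–99, and +EMD, and at 1.13 in Q133H. These 3 genes shared low day 2 values in Q133H beside clearly higher values in EMD-/y, S54F, and +EMD. Cass4, a scaffold protein of the Cas family that acts at focal adhesions, was at 493 to 563 in wildtype at day 2 and at 4.75 to 27.3 in the lines.

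**Figure D2:**
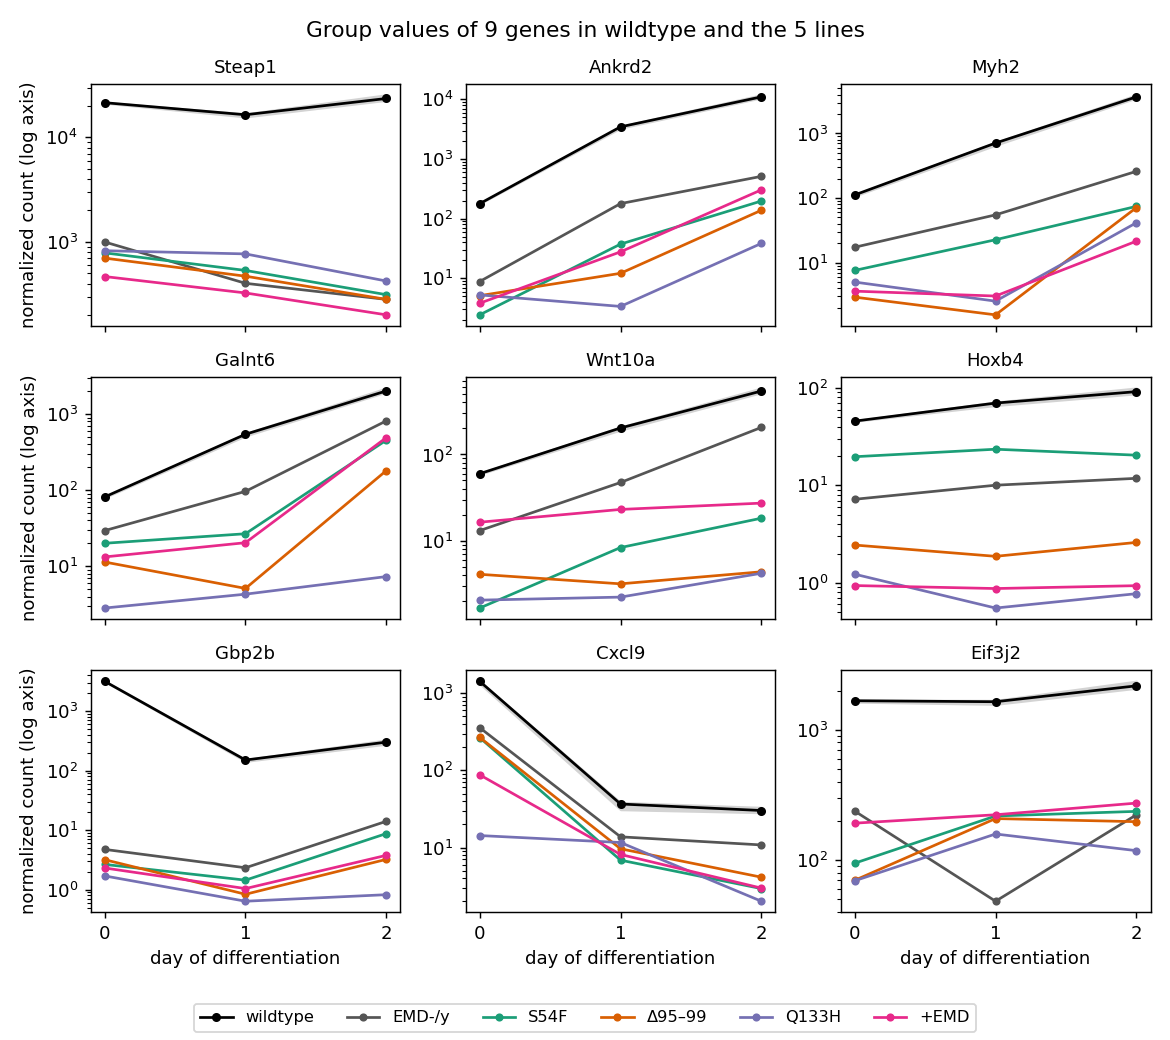
Normalized count of 9 of the genes by day (log axis, ranges differ by panel) in wildtype (black, median of the 5 tables, with their range in grey) and in the 5 lines (1 pooled value each). By the rule, the wildtype value of a day lies above all line values of that day in every panel. Ankrd2, Myh2, and Galnt6 rise from day 1 to day 2 in wildtype and, from lower values, in the lines, with Galnt6 at 7.33 in Q133H.

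The promoters of Ankrd2, Myh2, and Cxcl9 are shown for the TATA box core TATAAA, read on either strand. It was held by promoters of 11 of the 37 genes (29.7%), beside 8.37% of genes over the minimum. Of all 32851 promoters, 13.6% held it. The other 8 genes were Adh7, Fzd1, Gm8909, Ifi202b, Morf4l1b, Pcbd1, Slc5a7, and Tfpi. Capitals mark the match.
Ankrd2, chr19:42035777-42036076, + strand: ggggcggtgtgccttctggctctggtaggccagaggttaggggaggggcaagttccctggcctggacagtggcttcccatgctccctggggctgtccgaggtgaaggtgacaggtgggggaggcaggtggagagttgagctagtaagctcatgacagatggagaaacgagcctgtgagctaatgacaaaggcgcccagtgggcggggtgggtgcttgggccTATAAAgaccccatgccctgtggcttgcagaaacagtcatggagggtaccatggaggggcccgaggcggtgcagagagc
Myh2, chr11:67170777-67171076, + strand: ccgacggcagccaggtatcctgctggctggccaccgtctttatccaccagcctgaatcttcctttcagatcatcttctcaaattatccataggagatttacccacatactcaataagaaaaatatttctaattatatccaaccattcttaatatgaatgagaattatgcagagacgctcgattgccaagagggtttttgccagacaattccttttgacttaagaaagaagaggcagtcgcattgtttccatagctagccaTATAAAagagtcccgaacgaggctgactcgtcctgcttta
Cxcl9, chr5:92328030-92328329, - strand: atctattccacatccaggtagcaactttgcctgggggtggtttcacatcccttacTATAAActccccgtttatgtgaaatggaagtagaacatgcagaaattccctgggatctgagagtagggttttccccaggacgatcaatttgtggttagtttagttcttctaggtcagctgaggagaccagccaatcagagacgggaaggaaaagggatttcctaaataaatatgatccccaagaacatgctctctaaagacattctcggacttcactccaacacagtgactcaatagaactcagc
The match starts at -29 in Ankrd2, at 10 in Myh2, and at -195 in Cxcl9, with the start site of the promoter shown as 0. In Ankrd2 this site lies downstream of the annotated gene start (42035917). The shares count a match at any place in the window, and a match is not a measured TATA box. Other motifs were counted in the same windows. The E-box CAGCTG was in promoters of 7 genes (18.9%, beside 17.9%), with neither Ankrd2 nor Myh2 among them. The MEF2 motif, searched as CTA and TAG with any 4 bases between, was in those of 0 genes (beside 3.76%). The TEAD core CATTCC was in those of 9 genes (24.3%, beside 14.2%). No test was run on these shares, and matches of different motifs may overlap.

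Wnt10a, a secreted Wnt ligand, rose with the muscle genes in wildtype, from 59.0 to 61.1 at day 0 to 191 to 209 at day 1 and 517 to 591 at day 2. EMD-/y followed at 13.1, 47.4, and 206. The transduced lines stayed low, with day 2 values of 27.3 in +EMD, 18.3 in S54F, 4.38 in Δ95–99, and 4.22 in Q133H, where S54F was at 9.10 when read between days. EMD-/y was thus well above the 4 transduced lines at day 2. Fzd1, a Wnt receptor, was lower to a similar degree in all lines. Its wildtype value was 2008 to 2052 at day 0 and the lines had 990, 940, 1006, 1007, and 1143 in the order EMD-/y, S54F, Δ95–99, Q133H, and +EMD. Its line medians of log2 ratio spanned only 0.305.

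Bmp4, a secreted ligand of the BMP family, was at 192 to 196 in wildtype at day 0 and 26.1 to 31.1 at day 2. It was at 16.2 in EMD-/y, 15.7 in Δ95–99, and 11.8 in Q133H at day 0, and at 1.75 in S54F and 1.45 in +EMD. Of 50 growth factor and cytokine ligands that could have entered, Bmp4 and Wnt10a did, with a median of -0.18 over the 50. Both ligands were below wildtype in all lines, as the rule requires.

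Extracellular and matrix-related genes followed several patterns. Efemp1 (fibulin-3), a matrix glycoprotein, was at 771 to 788, 1039 to 1120, and 768 to 871 in wildtype. Efemp1 was higher at day 2 than at day 0 in every line, at 376 after 20.4 in S54F, 253 after 26.0 in Δ95–99, 118 after 29.7 in EMD-/y, 60.4 after 2.81 in Q133H, and 34.2 after 4.50 in +EMD. The log2 ratio of Efemp1 in S54F was -1.07 at day 2. It was 1 of 50 matricellular proteins and matrix enzymes that could have entered, a list whose median was 0.03. Tfpi, an inhibitor of tissue factor-driven coagulation, was at 587 to 833 in wildtype and at 4.43 to 10.9 in Q133H, 21.7 to 37.6 in +EMD, 22.7 to 44.4 in Δ95–99, 53.5 to 93.9 in S54F, and 160 to 217 in EMD-/y. These ranges did not overlap between EMD-/y, S54F, and Q133H.

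Tgm2, a transglutaminase that cross-links proteins, was at 268 to 276 in wildtype at day 0 and 942 to 1071 at day 2. At day 2 Tgm2 was lowest in +EMD at 101, followed by Q133H at 217, Δ95–99 at 292, S54F at 349, and EMD-/y at 517. C1qtnf1, a secreted C1q/TNF-related protein, was at 211 to 299 in wildtype and 21.1 to 109 in the lines. Tgm2 and C1qtnf1 kept appreciable counts in all lines.

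Hoxb2, Hoxb3, and Hoxb4 are neighbouring homeobox genes of the HoxB cluster on chromosome 11 (96307101 to 96354020, GRCm38.p6), which set position along the body axis in the embryo. The Hoxb4 annotation lies within that of Hoxb3, and Hoxb2 starts 30.0 kb past Hoxb4, so reads in the shared stretch could count for either gene. Hoxb4 was at 45.4 to 46.3, 65.9 to 71.9, and 86.9 to 100.3 in wildtype. It was at 7.21, 10.1, and 11.8 in EMD-/y and at 19.7, 23.5, and 20.4 in S54F. Hoxb4 was at most 2.60 in Δ95–99, 1.23 in Q133H, and 0.938 in +EMD. Read between days, Q133H had at most 0.186 and +EMD was not listed. S54F thus kept the most Hoxb4 of the lines, EMD-/y came next, and the other lines were near the bottom of the scale.

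S54F, EMD-/y, and Δ95–99 came in the same order for the other HoxB genes at day 0. Hoxb3 was at 75.7 to 88.2 in wildtype, and at day 0 it was at 33.1 in S54F, 12.8 in EMD-/y, 5.78 in Δ95–99, 0.987 in +EMD, and 0.953 in Q133H. Hoxb2 was at 64.6 to 65.9 in wildtype at day 0, and at 23.9, 8.91, 5.95, 0.947, and 0.912 in the same order of lines. Of 33 homeobox and limb-patterning factors that could have entered, these 3 did, while Lbx1 and Tbx1 were higher throughout, and the median of the 33 was -0.20.

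Vax2, a homeobox factor of the ventral eye, was at 69.1 to 88.3 in wildtype and lowest in S54F (1.72 to 2.75) and Q133H (0.507 to 1.75). It was at 4.85 to 11.8 in EMD-/y, 22.2 to 29.3 in Δ95–99, and 20.1 to 41.9 in +EMD, so for Vax2 S54F was among the low lines. Prdm16, a transcriptional regulator known for brown fat, and Arhgef16, a guanine nucleotide exchange factor, are adjacent on chromosome 4, 16.0 kb apart. Prdm16 was at 93.4 to 95.3 in wildtype at day 0 and at 32.0 in S54F, 19.7 in Δ95–99, 12.5 in EMD-/y, 2.05 in +EMD, and 1.01 in Q133H. Arhgef16 was at 93.8 to 108 in wildtype at day 2 and at 14.4, 4.73, 28.5, 55.7, and 0.779 in the same order of lines. The neighbours differed in +EMD, which was low for Prdm16 and the highest line for Arhgef16 at day 2.

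Surface and signalling genes completed the group. Cadm4, an adhesion molecule of the immunoglobulin superfamily, was at 2180 to 2230 in wildtype at day 0, and at 111 in Q133H, 205 in Δ95–99, 340 in S54F, 489 in +EMD, and 745 in EMD-/y. F11r (JAM-A), a junctional adhesion molecule, was at 441 to 941 in wildtype and 36.5 to 258 in the lines. Spn (CD43), a sialoglycoprotein of blood cells, was at 542 to 553 in wildtype at day 0 and 35.2 to 40.5 at day 2, and at 32.4 to 142 and 3.70 to 19.2 in the lines on these days. Of 5 macrophage and blood markers 3 were listed in all tables (Cd68, Csf1r, and Itgam), with a sum of 28.3 to 292 in wildtype, of which Itgam was up to 265, and of 23.3 to 210 in the lines, and their part was not tested. Cadm4 and Spn were both lowest in Q133H at day 0.

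Slc5a7, the high-affinity choline transporter, was at 102 to 104 in wildtype at day 0 and at 1.07 to 8.68 in the lines. Mc4r, a melanocortin receptor, was at 262 to 299 in wildtype at day 2, at 138 in S54F, 125 in both Δ95–99 and +EMD, and 94.8 in EMD-/y, and at 24.5 in Q133H. Adh7, an alcohol dehydrogenase that can oxidize retinol, was at 272 to 544 in wildtype and 32.7 to 137 in the lines. Rassf2, a Ras-association protein, was at 192 to 302 in wildtype, 7.93 to 16.8 in Q133H, and 23.8 to 157 in the other lines. Sgsm1, a modulator of small G proteins, was at 124 to 185 in wildtype, 0.925 to 2.66 in Q133H, and 3.73 to 33.2 in the other lines. Mc4r, Rassf2, and Sgsm1 had Q133H as the lowest line at day 2.

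Morf4l1b and Hemk1 were low to nearly the same degree in every line. Morf4l1b, an annotated relative of a chromatin-reader gene, was at 1156 to 1316 in wildtype and 262 to 435 in the lines, and its line medians spanned 0.303. Hemk1, a methyltransferase, was at 111 to 178 in wildtype and 43.0 to 93.1 in the lines, with a span of 0.318. The line medians of the remaining genes of this paragraph spanned 1.81 to 2.54. Zfp983, a zinc-finger gene, was at 72.3 to 128 in wildtype and 6.01 to 43.5 in the lines. Ptprv, a receptor phosphatase annotated as a transcribed pseudogene, was at 1493 to 1628 in wildtype at day 1 and 53.0 to 231 in the lines. GeneID 15101, the other identifier with no symbol, was at 247 to 870 in wildtype and 1.99 to 35.0 in the lines.

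Pcbd1, a dehydratase that recycles the biopterin cofactor and also a partner of HNF1 factors, showed the widest difference between lines, with a span of 6.09 in the line medians. Wildtype was at 212 to 217, 223 to 240, and 442 to 504. EMD-/y was at 115, 108, and 249, S54F at 98.2, 122, and 254, and +EMD at 110, 123, and 262. Δ95–99 was lower, at 47.1, 48.1, and 88.1. Q133H was at 1.78, 0.918, and 0.903, and at most 0.514 when read between days. Pcbd1 was thus near 0 in Q133H and at an appreciable part of wildtype in the 4 other lines. Galnt6 (5.28) and Tfpi (5.00) had the next widest spans, again with Q133H lowest.

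Part of the group consists of genes with nearly identical partners, among which reads can be divided in more than one way. A transcript of another gene aligned over at least 200 bases with at least 97% identity for 15 of the 48 genes that had a GENCODE transcript (31.2%), beside 19.8% of 11212 genes over the minimum. The partner is an overlapping gene in several of these cases (Hoxb2, Tgm2, Cass4, Slfn5, C1qtnf1, Tcfl5), and a copy elsewhere in others. Gm15501 is also among the 15, and the values of its partner are not given here.

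Eno1b, a copy of the enolase gene Eno1 (99.5% identity), was at 3229 to 6218 in wildtype and 11.7 to 59.4 in the lines, and the ratios of its sum with Eno1 were -0.57 to 0.44, with a median of -0.02. Eif3j2, a copy of the translation initiation factor gene Eif3j1 (99.4% identity), was at 1562 to 2365 in wildtype and 48.3 to 273 in the lines. Eif3j1 was higher in all 15 tables, by 0.78 to 2.61, and the sum had a median ratio of 0.42. Hmga1b, a copy of the chromatin protein gene Hmga1 (99.8% identity), was at 7249 to 7526 in wildtype at day 0 and 525 to 596 at day 2, and at 7.95 to 474 in the lines. Hmga1 was higher by 0.44 to 3.95, and the sum had a median ratio of 0.48. For these 3 pairs the copy was low in every table while the median of the pair's sum stayed within 0.48 of 0. Single ratios of the sum ran from -0.72 to 1.08 for Eif3j2 with Eif3j1. They ran from -0.35 to 3.17 for Hmga1b with Hmga1, with 3.17 in Q133H at day 2, so that sum was not level in every line. How reads that fit both genes of a pair were assigned was not given in the sources used here, and its part in these values was not tested.

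**Figure D3:**
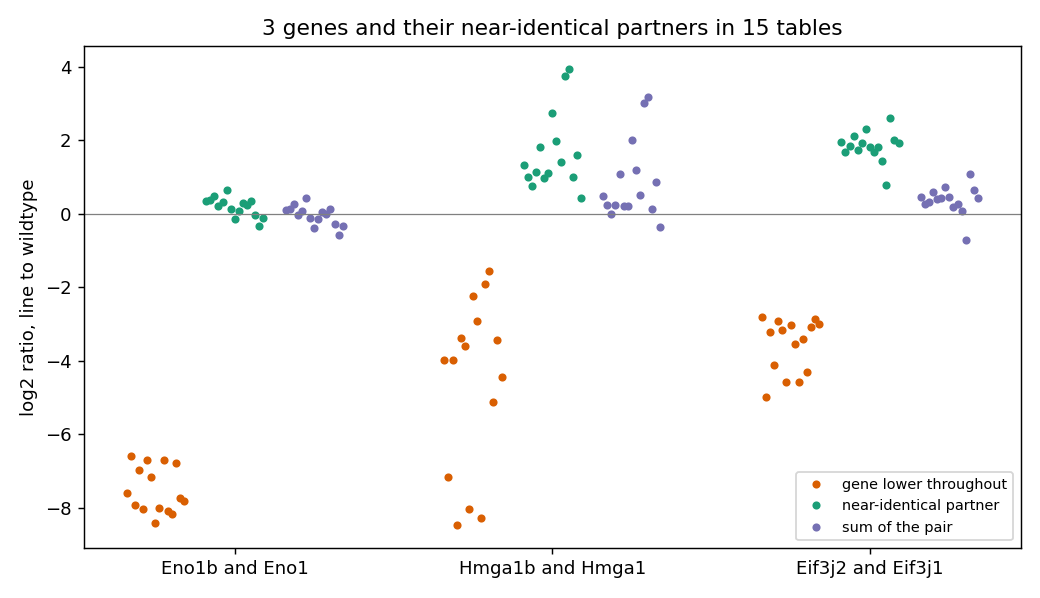
Log2 ratio of line to wildtype in the 15 tables (points) for 3 copies (orange), their near-identical partners (green), and the sum of each pair (purple), with pseudocount 1. The copies lie at -1.56 or lower and the sums of Eno1b with Eno1 between -0.57 and 0.44, while the sum of Hmga1b with Hmga1 reaches 3.17.

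Other partners behaved differently. Tagap, a GTPase-activating protein of T cells, was at 22.5 to 30.1 in wildtype and 2.82 to 7.92 in the lines, and its copy Tagap1 (99.3% identity) had ratios of -0.68 to 0.42. Tlr6, which shares 919 aligned bases with Tlr1, had ratios of -2.04 to 0.40, and H2-T22, which shares 294 with H2-T-ps, of -0.30 to 1.37. These partners lay on both sides of 0. Tlr6 was at -1.74, -2.04, and -1.42 in Q133H on days 0, 1, and 2, so in that line it was low as Tlr1 was.

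The days of wildtype differentiation were not used as such by the rule, which compared groups of the same day. From day 0 to day 1, 9 of the 52 genes were 2-fold or more higher in wildtype (17.3%, beside 9.69% of 11216 named genes) and 11 were 2-fold or more lower (21.2%, beside 7.22%). From day 1 to day 2, 7 were higher (13.5%, beside 5.28%) and 4 lower (7.69%, beside 10.1%). All 52 genes passed the minimum of 20, as their wildtype values had to. Each day is 1 pooled value and the p-values in the tables were not used, so these are counts past a fold, with no test.

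Between days 0 and 2, 29 genes stayed within 2-fold at both steps. The 5 that rose at both steps were Ankrd2 (log2 change 4.17, then 1.85), Myh2 (2.55, then 2.56), Galnt6 (2.68, then 2.09), Wnt10a (1.63, then 1.56), and Calml4 (1.35, then 1.46). Cass4 rose by 1.96 and Tgm2 by 1.86 at the first step, and Xpnpep2 by 2.01 and Pcbd1 by 1.17 at the second. Ptprv rose by 2.35 and then fell by 1.24. The largest falls at the first step were Gbp2b (-4.26), Cxcl9 (-3.20), and Hmga1b (-2.44). The Cxcl9 value is itself raised in that table, which lists day 1 at 139 where the table of days 1 and 2 lists 36.2, so its fall is understated and its place beside Gbp2b is not settled. Spn (-1.38, then -2.20) and Hmga1b fell at both steps, and GeneID 15101 fell by 1.46 at the second. Ifi202b, H2-T-ps, Bmp4, Prdm16, Slc5a7, Cadm4, and Slfn5 fell by 1.09 to 1.63 at the first step and then stayed within 2-fold.

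**Figure D4:**
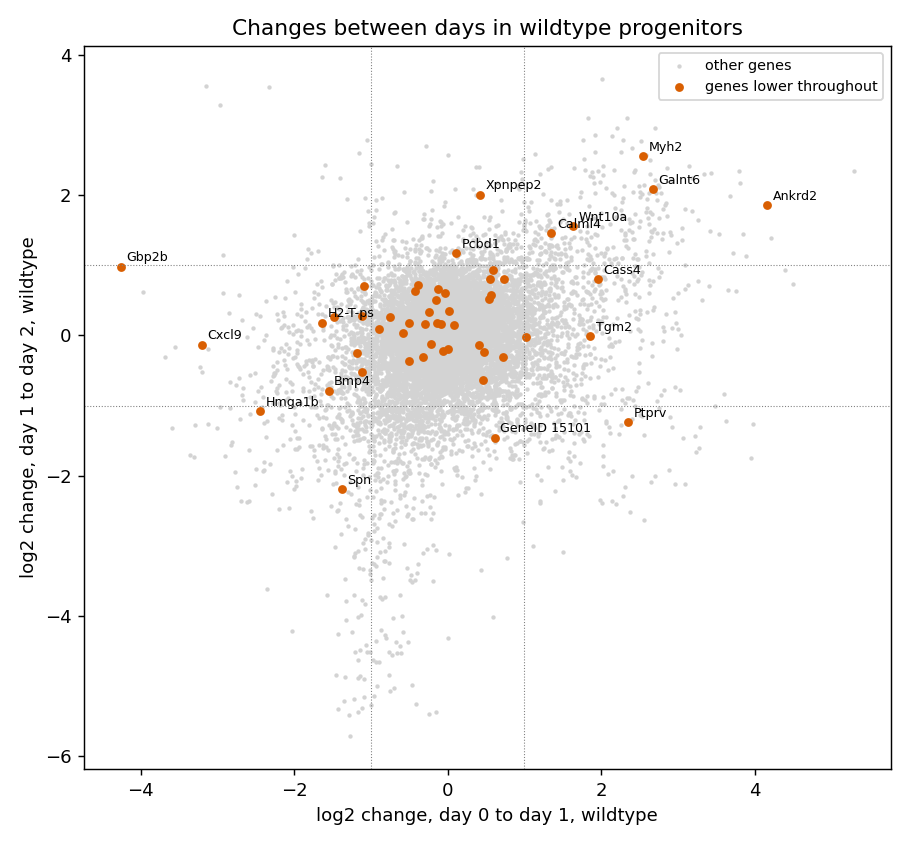
Log2 change in wildtype from day 0 to day 1 (x axis) and from day 1 to day 2 (y axis) for the 52 genes (orange) and the other named genes over the minimum (grey); dotted lines mark 2-fold. Ankrd2, Myh2, and Galnt6 lie at the upper right and Gbp2b, Cxcl9, and Hmga1b at the far left, while 29 genes lie inside the central square.

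Genes that rose in wildtype also rose in several lines, from lower values. Ankrd2 rose by 4.12 and then 1.84 in EMD-/y, by 3.51 and 2.64 in S54F, and by 2.47 and 3.67 in +EMD, and from day 1 to day 2 by 3.32 in Δ95–99 and 2.60 in Q133H. Galnt6 rose from day 1 to day 2 by 4.57 in +EMD, 4.48 in Δ95–99, 4.10 in S54F, and 3.23 in EMD-/y, and was at 4.38 and 6.91 in Q133H, under the minimum. Calml4 at this step rose by 3.04, 2.66, 2.55, and 1.54 in the same 4 lines. A gene that low passes the minimum of 20 only through the day on which it is high, so these rises are not compared with that of wildtype and line counts over such genes are not given.

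Wnt10a rose by 1.84 and then 2.33 in EMD-/y and by 0.38 and 0.45 in +EMD. The limit just given holds for Wnt10a too, so its rises are not compared with that of wildtype. Tgm2 rose by 2.94 in +EMD, 1.93 in EMD-/y, 1.45 in S54F, 1.12 in Q133H, and 0.47 in Δ95–99 from day 0 to day 1, beside 1.86 in wildtype. Cxcl9 fell in EMD-/y, S54F, Δ95–99, and +EMD by 3.38, 3.95, 4.62, and 3.70 at this step. Hmga1b differed in direction between lines: it fell by 5.69 in EMD-/y and rose by 2.74, 3.44, and 3.94 in S54F, Δ95–99, and Q133H. Steap1 fell by 1.24 in EMD-/y from day 0 to day 1 and by 0.31 at the next step, where wildtype rose by 0.72. No test was run on these differences between lines.

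In the genome, 8 of the 52 genes lie on chromosome 17 (15.4%, beside 5.01% of named genes over the minimum) and 8 on chromosome 11 (15.4%, beside 8.23%). The chromosome 17 genes include the MHC class I genes described above, and the chromosome 11 genes the HoxB cluster. On the X chromosome, Xlr3a lies 1158 kb from Emd. It was the only one of 42 genes over the minimum within 2 Mb of Emd that belonged to the group, and the median of the 42 medians was -0.11, beside -0.01 for all genes. None of 22 listed X-linked neighbours of Emd over the minimum and none of 25 imprinted genes belonged to it.

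At the edge of the rule, Vax2 (-0.803), Hemk1 (-0.807), and Rassf2 (-0.811) had the weakest single ratios inside, all in +EMD. Rnls (-0.777), Erfe (-0.771), and Prxl2b (-0.770) were just outside. Single tables were less strict than the rule: between 2.31% and 17.5% of genes were at -0.8 or lower in one table.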

How the data were processed

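RNA of 54 samples in 18 groups was sequenced with paired reads. According to the methods, the provider filtered reads with SOAPnuke, aligned them with HISAT2 to mm10, and the authors' comparisons of pairs of groups used DESeq2; versions and the read counter were not given in the sources used here. The 27 tables (15 of a line against wildtype, 12 between consecutive days) hold, as deposited by the authors, a signal value for each of 2 groups, which is a normalized count pooled over replicates, together with the authors' own log2 fold changes and p-values, which were not used. Tables were scaled separately. Nearly absent genes differed little between groups (at most 1.08- to 1.36-fold, by table, where both values averaged below 0.2), so the pooled values carry a fold change pulled toward 0. With 0 columns of per-sample values, no test across replicates, spread, or replicate check was computed here, and the depth per sample is unknown.

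Log2 ratios were taken within a table with a pseudocount of 1, and genes were matched to RefSeq (GRCm38.p6) by GeneID, which gave symbols for 50 of the 52 genes. The members and lists were chosen with earlier results of these data known. The rule for named genes took the 20 most negative medians, list members, the 3 highest in wildtype, the 3 largest rises and falls per wildtype step, the 3 widest spans between lines, and 3 on each side of the threshold. The other members were named after their values were seen, so that each is accounted for. GENCODE transcripts were aligned with minimap2 2.31-r1302. Python 3.11.15, numpy 2.4.6, and pandas 2.3.3 were used. Alternatives covered the pseudocount, threshold, minimum, centring, predicted genes, and leaving out each line or day.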

Additional observations from a re-analysis of the deposited data

How the results depend on the processing

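The count of 52 genes was between 37 and 77 under 14 of 16 alternatives. It was 125 when genes predicted by the provider were included (73 of them predicted) and 94 without the day 2 tables; all 52 genes were among both. Without the tables of EMD-/y it was 72, the largest change from leaving out 1 line. The 37 genes are those without a near-identical transcript, an alternative chosen after seeing the data. In wildtype, the count of genes higher from day 1 to day 2 was 7 at 2-fold and 17 at 1.5-fold, and the other 3 wildtype counts moved by at most 1.5 times. No paired analysis was possible because the tables hold 1 pooled value for each group. Leaving out single replicates was not possible for the same reason. Depth limits the genes near the bottom of the scale, whose ratios depend on the table.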
